A study of Homo sapiens with 12 samples.

Results

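The 41 genes described here belong to the ATF4 arm of the stress response and to the unfolded protein response. They were picked by gene name from the 60106 genes of each deposited table, and all 41 were found. By role they comprise 6 transcription factors of the ATF4 arm, 6 effectors of stress, 7 genes of amino acid synthesis and transport, 4 genes for stress sensors and XBP1, 14 ER chaperones and folding enzymes, and 4 genes of ER-associated degradation. The first 3 roles without ATF4 itself are called the ATF4 targets (18 genes), and the fifth is called the ER chaperones (14 genes). RNA was sequenced from PC3 and VCaP, established human prostate cancer lines, after RNAiMax transfection with a non-targeting siRNA (NSI) or an siRNA to FOXA1 (siFOXA1), in 3 libraries per line and siRNA. PC3 derives from a bone metastasis, and VCaP derives from a vertebral metastasis and carries an ERG rearrangement. PC3 cells grew in RPMI-1640, received 20 nM siRNA and gave libraries from the TruSeq stranded mRNA kit. VCaP cells grew in DMEM, received 40 nM and gave libraries from the TruSeq total RNA kit, so line, medium, dose and kit cannot be told apart. Every culture had L-glutamine, foetal calf serum, penicillin and streptomycin, every culture carried an siRNA, and RNA was taken after 72 hours. The labels do not say whether replicates were separate cultures, so p-values measure the spread between these libraries, which may be technical.

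ATF4 is a bZIP transcription factor whose mRNA is translated more when eIF2 is phosphorylated, which several kinases do under amino acid shortage, ER stress, viral double-stranded RNA or haem lack. Its targets supply amino acids and glutathione control and include feedback and death genes such as DDIT3 and TRIB3. The unfolded protein response starts in the ER membrane at EIF2AK3 (PERK), which phosphorylates eIF2, at ERN1 (IRE1), which splices XBP1 mRNA, and at ATF6, which is cleaved. ATF6 and spliced XBP1 switch on chaperones and ER-associated degradation. Secretory epithelium such as the prostate's depends on that folding capacity, and ATF4 mRNA is no measure of ATF4 protein or activity, nor is total XBP1 mRNA a measure of its splicing.

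Total counts ran from 123140099 to 188226483 in the PC3 libraries and from 48187047 to 59839211 in the VCaP libraries. FOXA1, the gene the siRNA was aimed at, was at 303, 244 and 266 CPM (counts relative to the TMM-scaled library size) in PC3 with NSI and at 163, 182 and 162 CPM with siFOXA1. VCaP had 458, 468 and 544 CPM with NSI against 85.2, 73.6 and 83.0 CPM with siFOXA1, so FOXA1 was lower in every siFOXA1 library of both lines and the remaining share was larger in PC3. The log2 fold change of FOXA1 was −0.68 (adjusted p 0.00220, SE 0.10) in PC3 and −2.60 (adjusted p 1.84e-07, SE 0.095) in VCaP. Of KRT7, VIM, S100A2 and CD44, 4 genes that mark PC3 beside VCaP, 3 passed the filter in VCaP and all 3 rose there. CD44 was at 4.93 to 6.22 CPM in VCaP NSI and 23.3 to 24.8 CPM in siFOXA1, against 338 to 424 CPM in PC3. KRT7 was at 0.0174 to 0.0797 CPM in VCaP NSI and 0.318 to 0.476 CPM in siFOXA1, against 1.30 to 1.76 CPM in PC3. VIM was at 0.139 to 0.424 CPM in VCaP NSI and 0.571 to 0.835 CPM in siFOXA1, against 736 to 873 CPM in PC3. In PC3 S100A2 fell with a log2 fold change of −0.54 (adjusted p 0.0116), and KLK3 and ERG, which mark VCaP, did not pass 0.0715 CPM. Among genes of other cells, LUM and VWF fell in VCaP, with log2 fold changes of −3.97 (adjusted p 1.29e-06) and −1.19 (adjusted p 6.10e-05), and COL1A1 rose in PC3 with 0.59 (adjusted p 0.00248). The leucocyte gene PTPRC rose in PC3 with 2.16 (adjusted p 0.0326) at levels that did not pass 0.120 CPM in any library, and CD3E and the stromal gene DCN did not pass 0.179 CPM. The part of these genes in the results on the 41 was not tested.

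Under FOXA1 siRNA 10 of the 18 ATF4 targets fell and 0 rose in PC3, while 12 rose and 2 fell in VCaP. The ER chaperones gave 1 call in PC3 and both rises and falls in VCaP. The 18 genes were chosen with earlier results of these data known. Their VCaP rise was not shared by 2 other lists given below. VCaP medians were −0.069 for aminoacyl-tRNA synthetases and −0.14 for other amino acid response genes. A gene is said to have risen or fallen, or to be called, where the adjusted p of edgeR's quasi-likelihood test of siFOXA1 against NSI was under 0.05, and every log2 fold change is siFOXA1 against NSI. In PC3, 12 of the 41 genes were called, 1 higher and 11 lower, against 27.7% of the 26478 genes tested (13.9% higher and 13.9% lower). Of those 11 falls, 10 were ATF4 targets, and the other was ATF4. In VCaP, 28 of the 41 were called, 21 higher and 7 lower, against 45.8% of the 22939 genes tested (22.5% higher and 23.3% lower). The member count in PC3 lay close to its background in total and was uneven in direction, and the count in VCaP lay above its background in the higher direction. All 41 genes passed the filter on low counts in both lines. In bulk RNA, fewer cells that express a gene and less RNA per cell cannot be told apart.

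The PC3 counts depended on how the libraries were treated. NSI and siFOXA1 libraries of the same replicate number deviated together in PC3, and with the replicate number as a block 22 members were called, 3 higher and 19 lower, against 42.8% of all genes. Leaving out 1 library in turn gave 4 to 11 called members in PC3, beside 14.7% to 27.9% of all genes. The count was 7 without NSI replicate 1 and 4 without NSI replicate 3, siFOXA1 replicate 1 or siFOXA1 replicate 3. Over all genes 21.2%, 17.4%, 14.7% and 18.8% were called in these runs, in that order. The calls of CEBPG, DDIT4, ASNS and PSAT1 held in all of these. Scaling by library size alone gave 7 called members in PC3, 2 higher and 5 lower, against 27.1% of all genes. In VCaP, 21 of the 28 calls held without any 1 library. In PC3 18 of 18 genes of an interferon response list rose, with summed levels of 718 to 1055 CPM in NSI and 7369 to 7683 CPM in siFOXA1. In VCaP the same sum was 239 to 255 CPM in NSI and 231 to 244 CPM in siFOXA1. Mitochondrial genes took 3.02% to 3.29% of counts in VCaP NSI and 4.04% to 4.69% in siFOXA1. Without mitochondrial and small RNA genes 22 members were called higher and 7 lower in VCaP, against 49.8% of all genes called. The part of the interferon genes in the changes of the 41 genes was not tested.

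**Figure D1:**
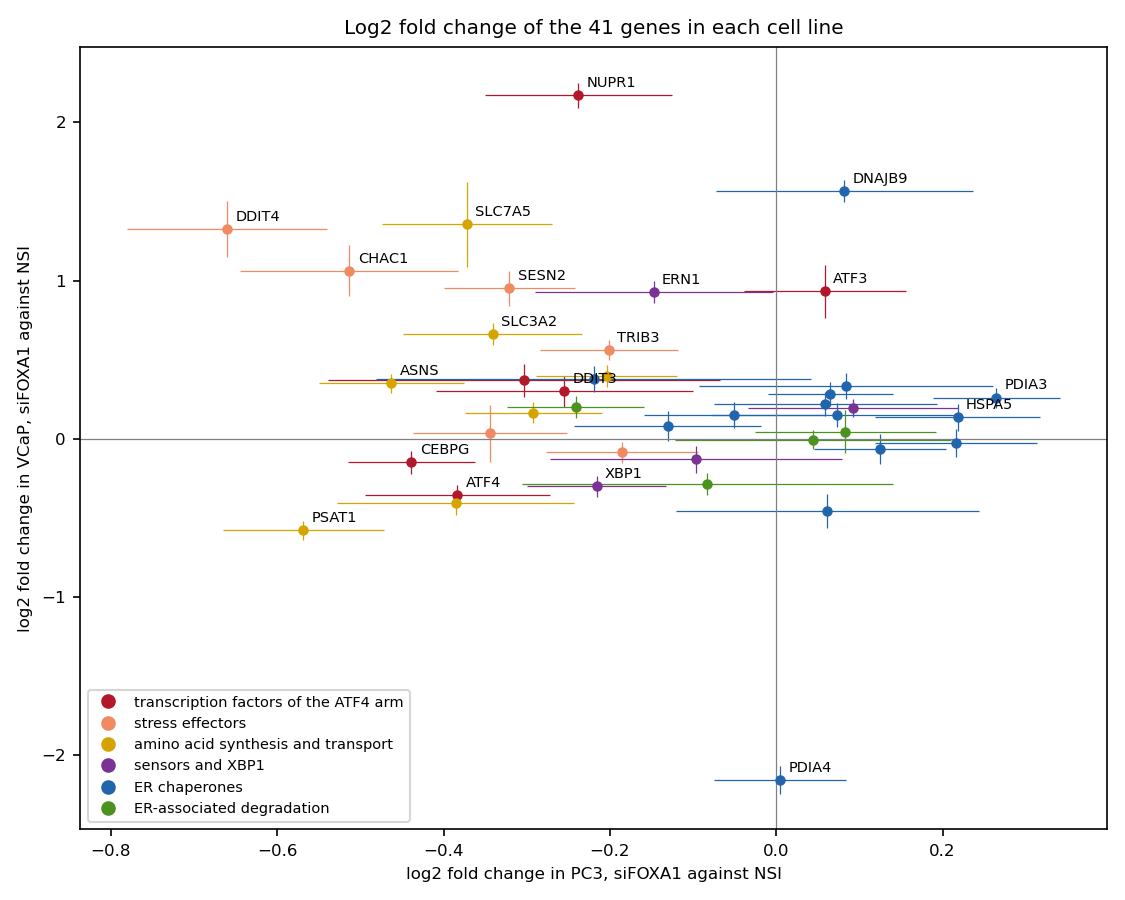
Log2 fold change of siFOXA1 against NSI for the 41 genes, PC3 on the horizontal axis and VCaP on the vertical axis, with bars of 1 SE and colours for the roles. The ATF4 targets NUPR1, DDIT4, SLC7A5, CHAC1 and SESN2 lie at the upper left, negative in PC3 and positive in VCaP, and PDIA4 lies alone at −2.16 in VCaP.

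Among the 6 transcription factors, ATF4 (ENSG00000128272.14_2, chromosome 22, 39915700 to 39918690, plus strand, GRCh37) fell in both lines. PC3 levels of ATF4 were 648, 816 and 685 CPM with NSI against 533, 599 and 515 CPM with siFOXA1. VCaP levels were 159, 151 and 167 CPM with NSI against 128, 124 and 121 CPM with siFOXA1. In each line the 3 siFOXA1 libraries lay below all 3 NSI libraries. The log2 fold change of ATF4 was −0.38 (adjusted p 0.0333, SE 0.11) in PC3 and −0.36 (adjusted p 0.00137, SE 0.063) in VCaP. The PC3 call of ATF4 was lost on leaving out NSI replicate 2 or 3 or siFOXA1 replicate 1 or 3 (adjusted p 0.0719 to 0.171), and under library size alone, under upper-quartile factors and with ties rounded to even (adjusted p 0.0537 to 0.0881), at log2 fold changes of −0.42 to −0.24. ATF4 has 3 processed pseudogenes in the tables, whose counts came to 1.77% of its own in PC3 and 1.49% in VCaP.

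NUPR1 (ENSG00000176046.8_2, chromosome 16, 28544029 to 28550495, minus strand), a small chromatin-associated protein induced by stress, rose further in VCaP than any other of the 41 genes. VCaP levels of NUPR1 were 64.9, 57.0 and 60.0 CPM with NSI against 266, 295 and 259 CPM with siFOXA1. Every siFOXA1 library was thus above every NSI library, with a log2 fold change of 2.17 (adjusted p 2.00e-07, SE 0.080), or 4.51-fold. In PC3 NUPR1 was at 217, 263 and 249 CPM with NSI against 188, 233 and 197 CPM with siFOXA1. Those groups overlapped and the log2 fold change was −0.24 (adjusted p 0.149, SE 0.11), with adjusted p 0.0130 under the replicate block, which calls it lower.

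DDIT3 encodes CHOP, the factor linked to cell death in prolonged ER stress. Its PC3 levels were 58.3, 82.6 and 66.0 CPM with NSI against 53.0, 68.7 and 51.6 CPM with siFOXA1. VCaP levels of DDIT3 were 13.9, 12.6 and 15.9 CPM with NSI against 18.8, 16.9 and 16.5 CPM with siFOXA1. The PC3 groups overlapped and the VCaP siFOXA1 libraries were above all NSI libraries. DDIT3 had a log2 fold change of −0.26 (adjusted p 0.250, SE 0.15) in PC3, called lower under the replicate block (adjusted p 0.0122), and rose with a log2 fold change of 0.30 (adjusted p 0.0311, SE 0.098) in VCaP. The VCaP call was lost on leaving out NSI replicate 1 or 2 or siFOXA1 replicate 1 or 2 (adjusted p 0.0604 to 0.114), and with DESeq2 and in the joint fit of all 12 libraries (adjusted p 0.05001 to 0.0993). The gene RP11-181L23.10 shares 8.03% of the DDIT3 exon length on the same strand and MARS shares 4.74% on the other, so some DDIT3 counts are uncertain.

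ATF3, a stress-induced repressor of the same bZIP family, rose in VCaP from 0.912 ± 0.103 to 1.74 ± 0.227 CPM (mean ± SD, n = 3), a log2 fold change of 0.93 (adjusted p 0.00152, SE 0.17). These are low levels, from 52, 47 and 46 counts with NSI against 85, 100 and 81 with siFOXA1. In PC3 the log2 fold change of ATF3 was 0.058 (adjusted p 0.688), the only positive value among the 18 ATF4 targets. CEBPG, a bZIP partner of ATF4, was called in PC3 and not in VCaP. PC3 levels of CEBPG were 121, 125 and 123 CPM with NSI against 88.0, 93.0 and 91.1 CPM with siFOXA1. The groups lay apart, and CEBPG fell with a log2 fold change of −0.44 (adjusted p 0.00396, SE 0.076) in PC3, while its VCaP log2 fold change was −0.15 (adjusted p 0.120) with overlapping groups. The CEBPG difference between the lines had an adjusted p of 0.103, and 0.0256 under the replicate block, which calls it. CEBPB, another partner, rose in VCaP with a log2 fold change of 0.37 (adjusted p 0.0168), a call lost on leaving out NSI replicate 1 or siFOXA1 replicate 1 (adjusted p 0.0523 to 0.0749), and with DESeq2 and in the joint fit of all 12 libraries (adjusted p 0.0585 to 0.205). In PC3 the siFOXA1 levels of CEBPB were 59.1, 89.1 and 42.5 CPM against 66.5, 84.0 and 84.8 CPM in NSI, so siFOXA1 replicate 2 stood above every NSI library and replicate 3 below all of them. The PC3 log2 fold change of CEBPB was −0.30 (adjusted p 0.369), and without siFOXA1 replicate 2 it was −0.63 (adjusted p 0.0276), which calls it lower. A gene on the other strand overlaps 11.8% of the CEBPB exon length, which leaves its PC3 counts uncertain. As a group, 2 of the 6 factors fell in PC3, and in VCaP 4 rose and 1 fell. That is 33.3% and 83.3% called, against 27.7% and 45.8% of all genes, so the PC3 share is near its background.

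The 6 stress effectors all had negative log2 fold changes in PC3, where 4 fell, and in VCaP 4 of them rose. That is 66.7% called in each line, against 27.7% of all genes in PC3 and 45.8% in VCaP. DDIT4 (ENSG00000168209.4_2, chromosome 10, 74033678 to 74035794, plus strand) encodes REDD1, which restrains mTORC1. PC3 levels of DDIT4 were 121, 138 and 142 CPM with NSI against 79.9, 98.5 and 75.5 CPM with siFOXA1. VCaP levels of DDIT4 were 8.03, 8.35 and 9.24 CPM with NSI against 20.0, 16.1 and 28.1 CPM with siFOXA1. The siFOXA1 libraries were all below NSI in PC3 and all above NSI in VCaP. DDIT4 fell with a log2 fold change of −0.66 (adjusted p 0.00474, SE 0.12) in PC3 and rose with a log2 fold change of 1.33 (adjusted p 2.77e-04, SE 0.18) in VCaP. Of the DDIT4 exon length, 48.5% lies opposite RP11-442H21.2, an antisense gene at 77.6 ± 6.51 CPM in PC3 NSI and 48.6 ± 6.42 CPM in siFOXA1. PC3 fragments were counted without regard to strand, so in PC3 reads of DDIT4 and of its antisense gene cannot be told apart. In VCaP the antisense gene did not pass 0.0398 CPM in any library.

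CHAC1 (ENSG00000128965.11_3, chromosome 15, 41245160 to 41248717, plus strand), which cleaves glutathione, also moved in opposite directions. PC3 levels of CHAC1 were 128, 151 and 136 CPM with NSI against 86.7, 117 and 87.6 CPM with siFOXA1. Its VCaP levels were 1.31, 1.10 and 0.990 CPM with NSI against 2.42, 2.60 and 2.06 CPM with siFOXA1. The groups did not overlap in either line. The log2 fold change of CHAC1 was −0.51 (adjusted p 0.0202, SE 0.13) in PC3 and 1.06 (adjusted p 5.68e-04, SE 0.16) in VCaP. The call in PC3 was lost on leaving out NSI replicate 2 or 3 or siFOXA1 replicate 1 or 3 (adjusted p 0.0557 to 0.121). In VCaP the CHAC1 counts were 68, 55 and 57 with NSI against 122, 131 and 108 with siFOXA1.

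SESN2, a leucine-binding brake on mTORC1, fell in PC3 and rose in VCaP. Its PC3 levels were 165, 168 and 171 CPM with NSI against 128, 137 and 138 CPM with siFOXA1. VCaP levels of SESN2 were 3.64, 3.39 and 4.34 CPM with NSI against 7.38, 7.36 and 7.31 CPM with siFOXA1. Its groups did not overlap in either line, and the log2 fold changes were −0.32 (adjusted p 0.0172, SE 0.079) and 0.95 (adjusted p 1.10e-04, SE 0.11). The PC3 call of SESN2 was lost on leaving out NSI replicate 3 or siFOXA1 replicate 1 or 3 (adjusted p 0.0514 to 0.134), and under library size alone (adjusted p 0.0605). TRIB3, a pseudokinase that feeds back on ATF4, rose in VCaP from 57.1 ± 3.47 to 84.1 ± 2.50 CPM (mean ± SD, n = 3), a log2 fold change of 0.56 (adjusted p 9.04e-05). In PC3 the 3 siFOXA1 libraries were below NSI for TRIB3, with a log2 fold change of −0.20 (adjusted p 0.102), with adjusted p 0.0375 under the replicate block. STC2, a secreted glycoprotein, fell in PC3 with a log2 fold change of −0.34 (adjusted p 0.0254), a call lost on leaving out NSI replicate 1 or 3 or siFOXA1 replicate 1 or 3 (adjusted p 0.0748 to 0.123), and under library size alone and in the joint fit of all 12 libraries (adjusted p 0.0658 to 0.158). In VCaP its groups overlapped at a log2 fold change of 0.034 (adjusted p 0.894). PPP1R15A (GADD34), which directs the phosphatase that reverses eIF2 phosphorylation, was lower in all siFOXA1 libraries of both lines. Its log2 fold changes were −0.19 (adjusted p 0.162) in PC3, with adjusted p 0.0420 under the block, and −0.086 (adjusted p 0.307) in VCaP.

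The 7 genes of amino acid synthesis and transport were all negative in PC3, with 5 falls, and in VCaP gave 4 rises and 2 falls. That is 71.4% and 85.7% called, against 27.7% and 45.8% of all genes. ASNS, asparagine synthetase (ENSG00000070669.16_3, chromosome 7, 97481430 to 97501854, minus strand), is a classic ATF4 target. PC3 levels of ASNS were 249, 231 and 267 CPM with NSI against 182, 186 and 174 CPM with siFOXA1. VCaP levels of ASNS were 18.7, 19.1 and 19.9 CPM with NSI against 24.8, 24.4 and 24.3 CPM with siFOXA1. The siFOXA1 libraries were below all NSI libraries in PC3 and above all of them in VCaP. ASNS fell with a log2 fold change of −0.46 (adjusted p 0.00557, SE 0.087) in PC3 and rose with a log2 fold change of 0.35 (adjusted p 0.00106, SE 0.059) in VCaP. Of its exon length, 79.7% is shared on the same strand with RP5-1090P18.1, and shared fragments were split between them. RP5-1090P18.1 had log2 fold changes of −0.46 in PC3 and 0.34 in VCaP, so the level of ASNS is uncertain and its direction is that of both.

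The 3 enzymes of serine synthesis gave mixed calls. PSAT1, the aminotransferase of serine synthesis (ENSG00000135069.13_2, chromosome 9, 80912059 to 80945009, plus strand), fell in both lines. PC3 levels of PSAT1 were 403, 343 and 418 CPM with NSI against 265, 266 and 254 CPM with siFOXA1. Its VCaP levels were 43.3, 41.4 and 45.8 CPM with NSI against 30.3, 29.0 and 28.005 CPM with siFOXA1. The siFOXA1 libraries were below all NSI libraries in each line, with log2 fold changes of −0.57 (adjusted p 0.00352, SE 0.097) and −0.58 (adjusted p 6.04e-05, SE 0.061). PHGDH, which catalyses the first step of that pathway, fell in PC3 with a log2 fold change of −0.29 (adjusted p 0.0299), a call lost on leaving out NSI replicate 1, 2 or 3 or siFOXA1 replicate 1 or 3 (adjusted p 0.0536 to 0.149), and under library size alone, under upper-quartile factors, without a filter on low counts and with ties rounded to even (adjusted p 0.0511 to 0.110). Its VCaP log2 fold change was 0.16 (adjusted p 0.0719), called higher under upper-quartile factors (adjusted p 0.0281) and without mitochondrial and small RNA genes (adjusted p 0.0493). PSPH, the last enzyme, rose in VCaP from 34.2 ± 0.761 to 45.0 ± 3.99 CPM (mean ± SD, n = 3), a log2 fold change of 0.40 (adjusted p 0.00153). In PC3 PSPH stood at a log2 fold change of −0.20 (adjusted p 0.107), with adjusted p 0.0411 under the replicate block, which calls it lower.

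SLC7A5 and SLC3A2 encode the light and heavy chains of the LAT1 leucine transporter. SLC7A5 (ENSG00000103257.8_2, chromosome 16, 87863629 to 87903094, minus strand) is described with its counts, since they were few in VCaP. PC3 levels of SLC7A5 were 948, 786 and 958 CPM with NSI against 719, 649.9 and 711 CPM with siFOXA1. In VCaP they were 0.231, 0.438 and 0.417 CPM with NSI against 1.05, 0.716 and 1.03 CPM with siFOXA1, from 12, 22 and 24 counts with NSI against 53, 36 and 54 with siFOXA1. The log2 fold changes of SLC7A5 were −0.37 (adjusted p 0.0273, SE 0.10) and 1.36 (adjusted p 0.00267, SE 0.27), with no overlap of groups in either line. The PC3 call was lost on leaving out NSI replicate 1 or 3 or siFOXA1 replicate 1, 2 or 3 (adjusted p 0.0662 to 0.104), and under library size alone, under upper-quartile factors and in the joint fit of all 12 libraries (adjusted p 0.0562 to 0.0689). In VCaP the pseudogene SLC7A5P2 held more counts than SLC7A5, at 5.55 ± 0.878 CPM in NSI and 9.10 ± 1.89 CPM in siFOXA1. Fragments that fit several places were divided among them, so the VCaP value of SLC7A5 is uncertain. The PC3 marker VIM, also abundant in PC3 and at 0.835 CPM or less in VCaP, rose in VCaP too, and its part in the SLC7A5 value was not tested. SLC3A2 had 1962, 1648 and 2143 counts in the VCaP NSI libraries, and rose there from 36.0 ± 2.71 to 56.9 ± 2.91 CPM (mean ± SD, n = 3), a log2 fold change of 0.66 (adjusted p 6.23e-05). In PC3 SLC3A2 fell with a log2 fold change of −0.34 (adjusted p 0.0449), a call lost on leaving out NSI replicate 1, 2 or 3 or siFOXA1 replicate 1 or 3 (adjusted p 0.0791 to 0.199), and under library size alone, under upper-quartile factors and with ties rounded to even (adjusted p 0.0692 to 0.116). SLC7A1, the CAT1 importer of arginine and lysine, went the other way in VCaP. Its VCaP levels were 103, 101 and 119 CPM with NSI against 77.8, 82.2 and 83.9 CPM with siFOXA1. All siFOXA1 libraries were lower, at a log2 fold change of −0.41 (adjusted p 0.00186, SE 0.075). In PC3 the groups overlapped at a log2 fold change of −0.39 (adjusted p 0.0750), with adjusted p 0.00217 under the replicate block. SLC7A1 was also called lower in PC3 without NSI replicate 2 (adjusted p 0.0186) and without a filter on low counts (adjusted p 0.0275).

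CHAC1 and ASNS fell together in PC3 and rose together in VCaP, and their promoters are shown because both hold the core letters of the composite element that C/EBP and ATF factors read. The 250 bases before the RefSeq start farthest upstream in each gene are printed in the direction of the gene. On GRCh38.p14 they lie at chr15:40953221-40953470, plus strand, for CHAC1 and at chr7:97872409-97872658, minus strand, for ASNS. Capitals mark TGATGNAA on either strand, which is on the reverse strand in CHAC1, 209 to 202 bases before the start, and on the forward strand in ASNS, 68 to 61 bases before it.

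CHAC1: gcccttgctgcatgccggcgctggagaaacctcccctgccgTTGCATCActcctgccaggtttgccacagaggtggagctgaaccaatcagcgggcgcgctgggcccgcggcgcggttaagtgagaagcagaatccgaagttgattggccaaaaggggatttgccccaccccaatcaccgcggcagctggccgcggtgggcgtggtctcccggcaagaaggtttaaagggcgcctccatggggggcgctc

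ASNS: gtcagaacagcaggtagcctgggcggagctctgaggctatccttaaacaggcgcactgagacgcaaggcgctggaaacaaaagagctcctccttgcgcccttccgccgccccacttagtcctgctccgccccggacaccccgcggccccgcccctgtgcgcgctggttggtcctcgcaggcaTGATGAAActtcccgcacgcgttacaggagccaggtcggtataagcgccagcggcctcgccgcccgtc

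RefSeq promoters were found for 38 of the 41 genes, 54 in all, since a gene can have several starts. TGATGNAA was present in 4 of 25 promoters of ATF4 targets (16%), those of ATF3, CEBPG, CHAC1 and ASNS. It was in 0 of 18 promoters of ER chaperones and in 3.14% of all 35116 promoters of the same length. Of those 4 genes, CEBPG and ATF3 did not share the pattern of calls of CHAC1 and ASNS. DDIT4, SESN2, SLC7A5 and SLC3A2, which did share that pattern, had no TGATGNAA in their promoters. Outside the ATF4 targets, HERPUD1 had a match. The forkhead core TGTTTAC, searched on both strands, was in 0 of the 54 promoters and in 2.98% of all promoters. A match is a run of letters and not a measured site, and the lack of a match says only that the letters are not in this window.

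Of the 3 ER stress sensors and XBP1, none passed the test in PC3, and in VCaP 2 rose and 1 fell. That is 0% and 75% called, against 27.7% and 45.8% of all genes. Unadjusted p values under 0.05 by edgeR numbered 1 in PC3, that of XBP1 (p 0.0297), and DESeq2 called 0 of the 4. XBP1 (ENSG00000100219.16_5, chromosome 22, 29190543 to 29196585, minus strand) encodes the factor made active by the IRE1 splice. PC3 levels of XBP1 were 140.1, 130.0 and 139 CPM with NSI against 117, 124 and 112 CPM with siFOXA1. VCaP levels of XBP1 were 189.6, 191 and 193 CPM with NSI against 163, 158 and 145 CPM with siFOXA1. The siFOXA1 libraries were below NSI in each line without overlap. XBP1 had a log2 fold change of −0.22 (adjusted p 0.0846, SE 0.083) in PC3, called lower under the replicate block (adjusted p 0.0285), and fell with a log2 fold change of −0.30 (adjusted p 0.00448, SE 0.065) in VCaP. The gene counts add up spliced and unspliced XBP1 mRNA.

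ERN1, the IRE1 sensor and nuclease, rose in VCaP from 21.2 ± 1.76 to 40.3 ± 1.04 CPM (mean ± SD, n = 3), a log2 fold change of 0.93 (adjusted p 8.03e-06, SE 0.071). In PC3 its groups overlapped at a log2 fold change of −0.15 (adjusted p 0.475). ATF6 rose in VCaP with a log2 fold change of 0.19 (adjusted p 0.0173), and that call was lost on leaving out NSI replicate 1 or 2 or siFOXA1 replicate 1 (adjusted p 0.0647 to 0.0692), and with DESeq2, without a filter on low counts and in the joint fit of all 12 libraries (adjusted p 0.0650 to 0.1496). In PC3 ATF6 was at a log2 fold change of 0.092 (adjusted p 0.622). EIF2AK3, the PERK kinase upstream of ATF4, had log2 fold changes of −0.097 (adjusted p 0.713) in PC3 and −0.13 (adjusted p 0.243) in VCaP, with overlapping groups in both. Other-strand genes overlap 16.95% of the EIF2AK3 exon length, which leaves its PC3 counts uncertain. ERN1 and XBP1, which act in the same branch, thus went opposite ways in VCaP.

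Among the 14 ER chaperones 1 was called in PC3, PDIA3, and 8 in VCaP, 6 higher and 2 lower. These shares, 7.14% and 57.1%, stand beside 27.7% and 45.8% of all genes, so the VCaP share is near its background. HSPA5 (ENSG00000044574.7_2, chromosome 9, 127997132 to 128003609, minus strand) encodes BiP, the ER Hsp70 that holds the sensors inactive and the usual readout of the response. PC3 levels of HSPA5 were 1537, 1288 and 1512 CPM with NSI against 1798, 1642 and 1606 CPM with siFOXA1. VCaP levels of HSPA5 were 915, 935 and 933 CPM with NSI against 1099, 1050.0 and 909 CPM with siFOXA1. The siFOXA1 libraries were above NSI in PC3, and in VCaP siFOXA1 replicate 3 lay below every NSI library. The log2 fold change of HSPA5 was 0.22 (adjusted p 0.134, SE 0.099) in PC3 and 0.14 (adjusted p 0.226, SE 0.086) in VCaP, and neither passed the test. Under the replicate block HSPA5 was called higher in PC3 (adjusted p 0.0290), as it was under library size alone (adjusted p 0.0438). Without siFOXA1 replicate 3 it was called higher in VCaP, at a log2 fold change of 0.21 (adjusted p 0.0460).

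DNAJB9 and PDIA4 moved furthest of the chaperones, in opposite directions. Each passed the test in VCaP and not in PC3, and both were called in the test of the difference between the lines. DNAJB9 (ENSG00000128590.4_2, chromosome 7, 108210012 to 108215294, plus strand) encodes ERdj4, a BiP cochaperone that also restrains IRE1. VCaP levels of DNAJB9 were 11.1, 11.5 and 10.3 CPM with NSI against 33.9, 32.8 and 30.8 CPM with siFOXA1. PC3 levels of DNAJB9 were 34.3, 23.9 and 37.3 CPM with NSI against 35.6, 33.8 and 31.7 CPM with siFOXA1. The VCaP groups lay apart, and the PC3 groups overlapped. DNAJB9 rose with a log2 fold change of 1.57 (adjusted p 4.37e-07, SE 0.071) in VCaP, or 2.96-fold, and had a log2 fold change of 0.082 (adjusted p 0.725) in PC3.

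PDIA4 (ENSG00000155660.10_4, chromosome 7, 148700154 to 148725733, minus strand) encodes ERp72, a protein disulphide isomerase. VCaP levels of PDIA4 were 306, 321 and 329 CPM with NSI against 78.8, 71.2 and 64.2 CPM with siFOXA1. PC3 levels of PDIA4 were 243, 247 and 252 CPM with NSI against 259, 238 and 248 CPM with siFOXA1. The VCaP siFOXA1 libraries all lay far below NSI, while the PC3 groups overlapped. In VCaP PDIA4 fell with a log2 fold change of −2.16 (adjusted p 2.50e-07, SE 0.086) to 22.4% of its NSI level, and in PC3 the log2 fold change was 0.0045 (adjusted p 0.971, SE 0.079). No other gene of the 41 fell by more than 0.58 on the log2 scale in VCaP.

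**Figure D2:**
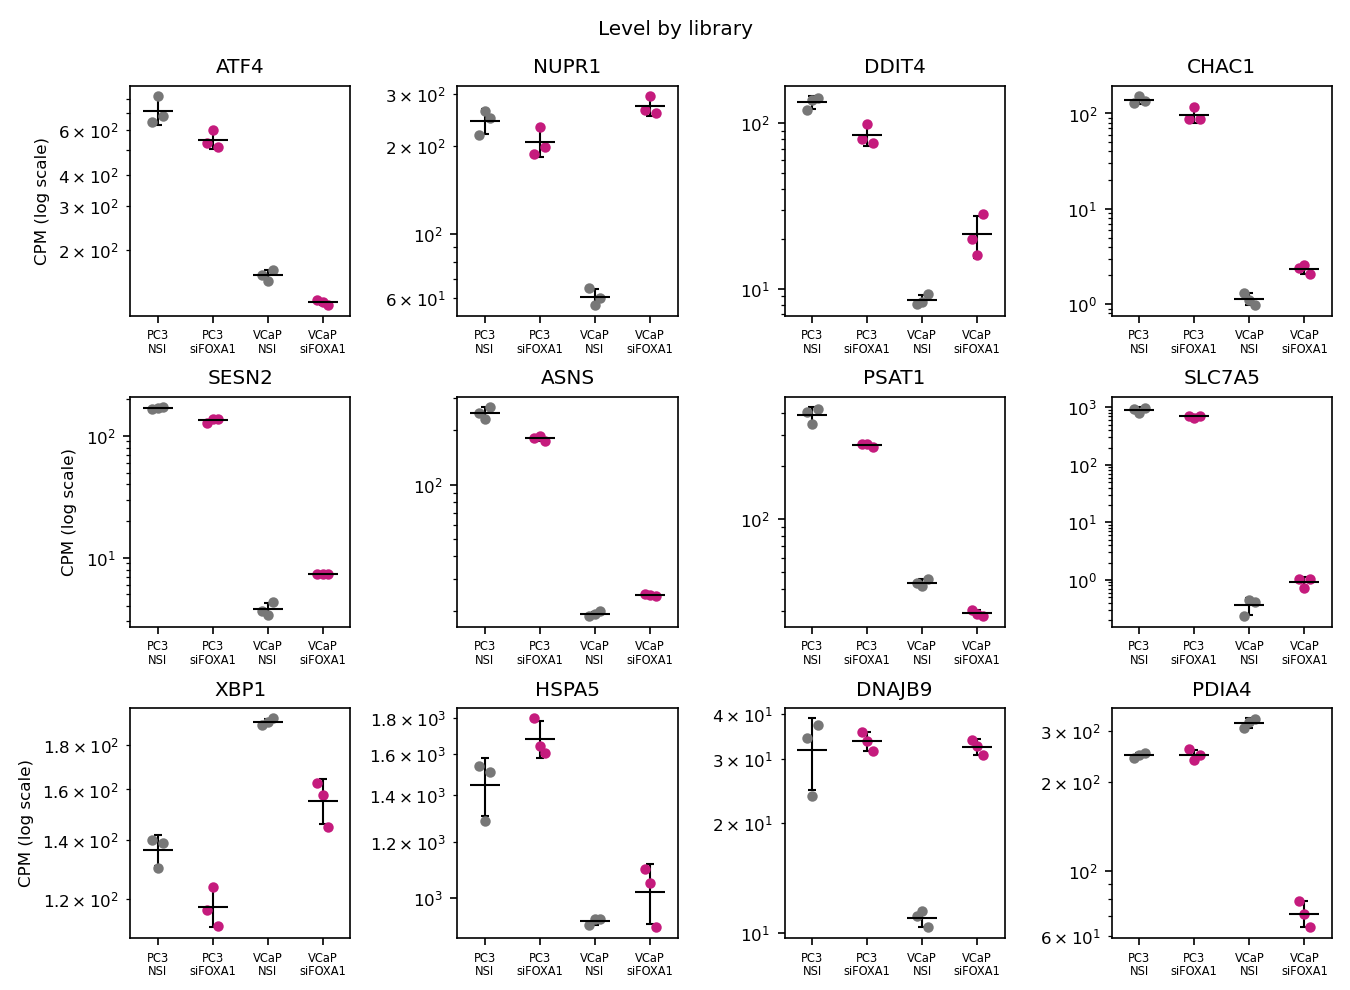
CPM on a log axis in each of the 12 libraries for 12 of the genes, grouped by line and siRNA, with the mean and a bar of ± 1 SD over 3 libraries. In VCaP the siFOXA1 libraries of NUPR1 (266, 295 and 259 CPM) and DNAJB9 lie above NSI and those of PDIA4 (78.8, 71.2 and 64.2 CPM) below it, and ATF4 is lower under siFOXA1 in both lines.

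The promoters of HSPA5, DNAJB9 and PDIA4 are shown because the 3 genes are all known targets of the response and moved apart. Each is the 250 bases before the RefSeq start farthest upstream, in the direction of the gene. On GRCh38.p14 HSPA5 is at chr9:125241344-125241593, minus strand, DNAJB9 at chr7:108569624-108569873, plus strand, and PDIA4 at chr7:149028491-149028740, minus strand. Capitals in HSPA5 mark the ER stress response element, CCAAT and CCACG parted by 9 bases, 66 to 48 bases before the start. Capitals in DNAJB9 and PDIA4 mark ACGTG, the core read by XBP1 and ATF6, on either strand. In DNAJB9 both strands match at 2 places, beginning 73 and 49 bases before the start, and in PDIA4 the reverse strand matches from 216 to 212 bases before it.

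HSPA5: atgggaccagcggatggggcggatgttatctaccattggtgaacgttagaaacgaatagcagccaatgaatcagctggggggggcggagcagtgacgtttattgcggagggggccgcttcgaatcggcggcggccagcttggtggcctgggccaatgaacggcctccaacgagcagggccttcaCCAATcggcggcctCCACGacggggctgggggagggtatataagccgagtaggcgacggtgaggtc

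DNAJB9: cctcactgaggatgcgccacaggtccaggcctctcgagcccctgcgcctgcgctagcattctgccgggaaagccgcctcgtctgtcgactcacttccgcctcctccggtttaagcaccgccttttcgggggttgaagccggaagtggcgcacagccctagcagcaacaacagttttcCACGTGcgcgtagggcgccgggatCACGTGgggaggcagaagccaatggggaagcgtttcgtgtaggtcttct

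PDIA4: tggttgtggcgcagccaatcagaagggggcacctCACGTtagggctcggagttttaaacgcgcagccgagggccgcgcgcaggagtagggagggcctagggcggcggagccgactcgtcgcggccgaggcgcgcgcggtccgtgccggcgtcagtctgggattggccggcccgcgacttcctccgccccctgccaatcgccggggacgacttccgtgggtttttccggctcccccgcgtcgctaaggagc

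The ER stress response element was found in 7 of 18 chaperone promoters (38.9%), of HSPA5, HSP90B1, CALR, CANX, PDIA6 and CRELD2. It was in 0 of 25 promoters of ATF4 targets and in 26 of all 35116 promoters (0.074%). Outside the chaperones, XBP1 had it. ACGTG was in 5 of 18 chaperone promoters, against 18.5% of all promoters, and the list held too few promoters for more than a description. Of the 6 chaperones with the element, PDIA6 and CRELD2 rose in VCaP and the other 4 did not pass the test in either line.

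PDIA3 (ERp57), which folds glycoproteins with calnexin and calreticulin, rose in both lines. PC3 levels of PDIA3 were 356, 349 and 350.4 CPM with NSI against 429.5, 431 and 408 CPM with siFOXA1. In VCaP the mean went from 174 ± 7.51 to 208 ± 2.76 CPM (mean ± SD, n = 3). The siFOXA1 libraries were above all NSI libraries in each line, at a log2 fold change of 0.26 (adjusted p 0.0331, SE 0.077) and 0.26 (adjusted p 0.00732, SE 0.062). The PC3 call of PDIA3 was lost on leaving out NSI replicate 1 or 3 or siFOXA1 replicate 1, 2 or 3 (adjusted p 0.0652 to 0.117), and without a filter on low counts (adjusted p 0.0965), and the VCaP call on leaving out NSI replicate 1 (adjusted p 0.0512). Genes on the other strand overlap 21.6% of its exon length, which leaves the PC3 counts uncertain.

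DNAJC3, a BiP cochaperone that also inhibits eIF2 kinases, fell in VCaP. Its VCaP levels were 44.2, 48.6 and 45.9 CPM with NSI against 37.0, 36.6 and 27.5 CPM with siFOXA1. All siFOXA1 libraries were lower, at a log2 fold change of −0.46 (adjusted p 0.00649, SE 0.11), and in PC3 the groups overlapped at a log2 fold change of 0.062 (adjusted p 0.825). Smaller rises in VCaP were those of SDF2L1, a partner of ERdj3, with a log2 fold change of 0.38 (adjusted p 0.00418), and CRELD2, a secreted ER stress protein, with one of 0.33 (adjusted p 0.00769). In the joint fit of all 12 libraries DNAJC3 stood at a log2 fold change of −0.43 (adjusted p 0.0679), SDF2L1 at a log2 fold change of 0.40 (adjusted p 0.170) and CRELD2 at a log2 fold change of 0.36 (adjusted p 0.0840), so all 3 VCaP calls were lost there. PDIA6, which can switch off IRE1, rose with a log2 fold change of 0.28 (adjusted p 0.0128) and HYOU1, an ER Hsp70 relative, rose with a log2 fold change of 0.22 (adjusted p 0.0425). Calls were lost for PDIA6 on leaving out NSI replicate 1 or siFOXA1 replicate 1 or 2 (adjusted p 0.0529 to 0.0736) and for HYOU1 on leaving out NSI replicate 1 or 2 or siFOXA1 replicate 1 or 2 (adjusted p 0.112 to 0.178), and with DESeq2, under library size alone and in the joint fit of all 12 libraries (adjusted p 0.0509 to 0.151). CALR, HSP90B1 and CANX, abundant chaperone mRNAs, did not pass the test in either line. CALR, the lectin calreticulin, had log2 fold changes of 0.22 (adjusted p 0.130) in PC3 and −0.024 (adjusted p 0.847) in VCaP, with adjusted p 0.0379 under the block in PC3, which calls it higher, and 0.0106 there without NSI replicate 2. HSP90B1, the ER Hsp90, had log2 fold changes of 0.12 (adjusted p 0.275) in PC3 and −0.064 (adjusted p 0.619) in VCaP. CANX, the lectin calnexin, had log2 fold changes of 0.072 (adjusted p 0.751) in PC3 and 0.15 (adjusted p 0.135) in VCaP. DNAJB11 (ERdj3) had log2 fold changes of −0.13 in PC3 and 0.081 in VCaP and was not called. MANF, a secreted stabiliser of BiP complexes, had log2 fold changes of −0.051 and 0.15 and was not called. Other-strand genes overlap 29.7% of the exon length of PDIA6, 15.9% of DNAJB11, 14.2% of CALR and 14.1% of HYOU1. The PC3 counts of these genes are therefore uncertain. DNAJB11 also shares 18.8% of its exon length with RP11-134F2.8 on the same strand.

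The 4 genes of ER-associated degradation gave 0 calls in PC3 and 2 in VCaP. These shares, 0% and 50%, stand beside 27.7% and 45.8% of all genes, so the VCaP share is near its background. Unadjusted p values under 0.05 by edgeR numbered 1 in PC3, that of HERPUD1 (p 0.0180), and DESeq2 called 0 there. HERPUD1, a membrane adaptor of that machinery, rose in VCaP from 27.9 ± 2.06 to 32.1 ± 1.06 CPM (mean ± SD, n = 3), a log2 fold change of 0.20 (adjusted p 0.0392), a call lost on leaving out NSI replicate 2 or 3 or siFOXA1 replicate 1 or 2 (adjusted p 0.0742 to 0.122), and with DESeq2, under library size alone and without a filter on low counts (adjusted p 0.0899 to 0.126). In PC3 its siFOXA1 libraries were below all NSI libraries at a log2 fold change of −0.24 (adjusted p 0.0597), with adjusted p 0.0165 under the block, which calls it lower. SEL1L, the scaffold of the HRD1 ligase, fell in VCaP with a log2 fold change of −0.29 (adjusted p 0.00903), a call lost in the joint fit of all 12 libraries (adjusted p 0.335). SYVN1, the HRD1 ligase itself, had log2 fold changes of 0.083 (adjusted p 0.603) in PC3 and 0.045 (adjusted p 0.812) in VCaP. Without VCaP siFOXA1 replicate 3 SYVN1 was at a log2 fold change of 0.21 (adjusted p 0.0220), which calls it higher, and without siFOXA1 replicate 1 or 2 it was negative, at −0.048 and −0.049. EDEM1, which hands misfolded glycoproteins to the ligase, had log2 fold changes of 0.044 (adjusted p 0.864) in PC3 and −0.0062 (adjusted p 0.946) in VCaP. SEL1L was at 178, 96.5 and 172 CPM in the PC3 NSI libraries, so replicate 2 lay far below the others.

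Set against each other, the ATF4 targets lay below the ER chaperones in PC3 and above them in VCaP. In PC3 10 of 18 targets fell and 0 rose by edgeR, with 0 rises at an unadjusted p under 0.05 and 0 by DESeq2, and 17 of 18 had negative values, with a median log2 fold change of −0.33 against −0.014 over all genes tested. The chaperone median in PC3 was 0.069, with 11 of 14 positive. Without 1 library 4 to 10 targets fell in PC3, with 6 without NSI replicate 1 and 4 without NSI replicate 3 or siFOXA1 replicate 1 or 3. In those runs 0 to 2 chaperones were called, and 14.7% to 27.9% of all genes in either direction. Library size alone as the scale gave 5 falls among the targets, with 27.1% of all genes called in either direction. In 13 of 18 targets the PC3 siFOXA1 libraries lay below all NSI libraries, against 22.7% of all genes, and in none above. In 5 of 14 chaperones they lay above, against 22.4% of all genes, and in none below. In VCaP 12 of 18 targets rose and 2 fell, PSAT1 and SLC7A1, with a median of 0.38 against 0.022 over all genes. The chaperone median in VCaP was 0.15, and without NSI replicate 1 the chaperones called there came to 5. There 13 targets were above NSI without overlap and 3 below, against 27.9% and 28% of all genes, and 7 chaperones were above and 2 below. With the replicate block, 16 of 18 targets fell in PC3 and 3 chaperones were called there, all higher, beside 42.8% of all genes called.

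The same was read library by library. The log2 ratio of each gene to its line's NSI mean was taken on CPM plus a pseudocount of 0.5, and the median over a list was read in each library. For the targets these medians were −0.051, 0.031 and 0.052 in PC3 NSI and −0.36, −0.24 and −0.38 in siFOXA1. In VCaP they were −0.0047, −0.062 and 0.050 in NSI and 0.45, 0.40 and 0.37 in siFOXA1. Of the 18 targets, 1, 3 and 1 were above the NSI mean in the PC3 siFOXA1 libraries, and 13, 13 and 14 in those of VCaP. The chaperone medians under siFOXA1 were 0.15, 0.094 and 0.072 in PC3 and 0.24, 0.17 and 0.069 in VCaP. Targets minus chaperones gave −0.51, −0.34 and −0.45 in the PC3 siFOXA1 libraries and 0.20, 0.23 and 0.30 in those of VCaP. The NSI libraries of both lines stayed between −0.097 and 0.060 on that measure, so siFOXA1 libraries lay below them in PC3 and above them in VCaP. The lists were described in this way and not tested.

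**Figure D3:**
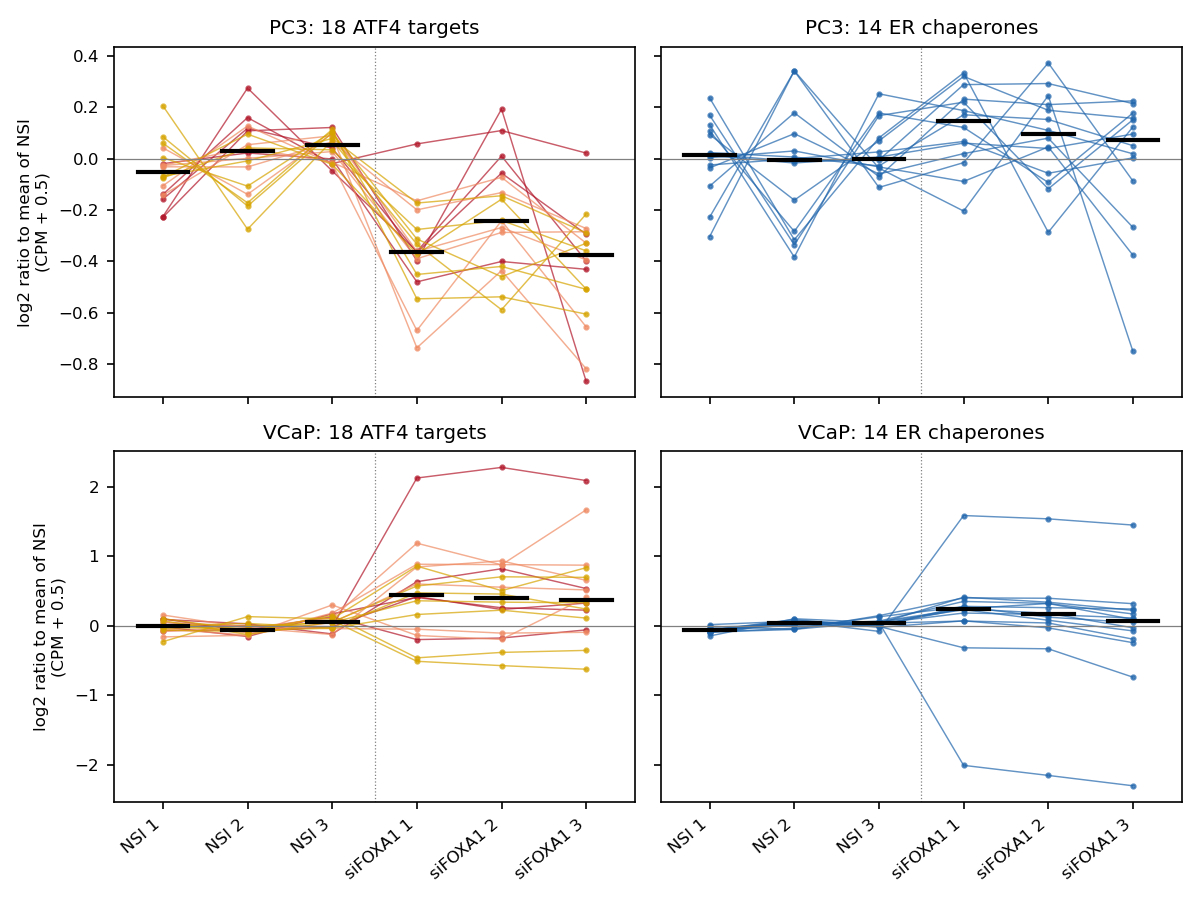
Log2 ratio of each ATF4 target (left, with transcription factors in dark red, stress effectors in salmon and amino acid genes in gold) and ER chaperone (right, blue) to the NSI mean of its line, 1 line per gene, in each library, on CPM plus 0.5, with the list median as a black bar. Target medians under siFOXA1 lie at −0.36, −0.24 and −0.38 in PC3 (upper row) and at 0.45, 0.40 and 0.37 in VCaP (lower row), and the vertical scales of the rows differ.

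The 2 lines were then compared directly, for whether a gene's response differed. The members that fell in PC3 and rose in VCaP were 6, CHAC1, DDIT4, SESN2, ASNS, SLC7A5 and SLC3A2, all of them ATF4 targets, against 2.41% of the 19282 genes tested in both lines. By edgeR 0 members showed the reverse (0 at an unadjusted p under 0.05 and 0 by DESeq2), against 2.68%. ATF4 and PSAT1 fell in both lines (6.48% of genes) and PDIA3 rose in both (4.57%). The count of 6 became 11 with the replicate block and 2 without PC3 NSI replicate 3, siFOXA1 replicate 1 or siFOXA1 replicate 3. Library size alone as the scale gave 3. In the interaction test over all 12 libraries, VCaP effect minus PC3 effect, 15 of 41 members were called, 14 more positive in VCaP and 1 more negative, against 22.1% of the 30450 genes tested (11.1% and 11.1%). Of the 18 ATF4 targets 11 were more positive in VCaP and 0 more negative by edgeR (0 at an unadjusted p under 0.05 and 0 by DESeq2), with a median difference of 0.70 against 0.049 over all genes. The chaperone median was 0.10, with 2 of 14 called (14.3%). Without PC3 siFOXA1 replicate 2, 4 of 14 were called, beside 23.4% of all genes. With the replicate block 4 of 14 chaperones were called, beside 29% of all genes, so that share is near its background. They were DNAJB9 and SDF2L1, more positive, and PDIA4 and DNAJC3, more negative.

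NUPR1 gave the largest difference of the 41 genes, 2.40 (adjusted p 2.44e-08, SE 0.14) on the log2 scale. It was followed by DDIT4 at 1.97 (adjusted p 1.54e-05, SE 0.23), SLC7A5 at 1.71 (adjusted p 2.84e-04, SE 0.27) and CHAC1 at 1.56 (adjusted p 4.29e-05, SE 0.20). The negative difference was that of PDIA4, −2.18 (adjusted p 1.76e-08, SE 0.13). All 5 held without any 1 of the 12 libraries. ATF4 itself had log2 fold changes of −0.38 in PC3 and −0.36 in VCaP, so its mRNA was called lower in both lines while 6 of its targets fell in the first and rose in the second. The VCaP call of ATF4 held under 16 of 16 alternatives and the PC3 call under 9 of 16.

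In the NSI libraries the 18 ATF4 targets were all higher in PC3 than in VCaP, in every library, against 43.8% of genes. Of the 14 chaperones 6 were higher in PC3, 6 lower (42.4% of genes) and 2 overlapped. Levels between genes were compared as CPM per kilobase of exon. In PC3 NSI the order began with CALR at 489 ± 54.0, HSPA5 at 370.0 ± 35.0, HSP90B1 at 322 ± 5.89 and ATF4 at 285 ± 35.2 CPM per kilobase (mean ± SD, n = 3). HSP90B1 and ATF4 overlapped in range, as did TRIB3 and PHGDH, which came next at 227 ± 8.94 and 225 ± 10.0. The order in VCaP NSI began with CALR at 719 ± 24.7, HSP90B1 at 439.8 ± 24.9, CANX at 338 ± 16.4, HSPA5 at 237 ± 2.81 and PDIA4 at 109.7 ± 4.01, none of which overlapped its neighbour. The last places were those of EIF2AK3 in PC3, at 4.73 ± 1.14, and of SESN2, CHAC1, ATF3 and SLC7A5 in VCaP, at 1.10 ± 0.144, 0.550 ± 0.0790, 0.360 ± 0.0407 and 0.0790 ± 0.0249. ATF4 stood at 63.4 ± 3.12 CPM per kilobase in VCaP NSI, and TRIB3 at 19.7 ± 1.20. Kit, medium, dose and strand rule differed between the lines, so these level differences were not tested.

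**Figure D4:**
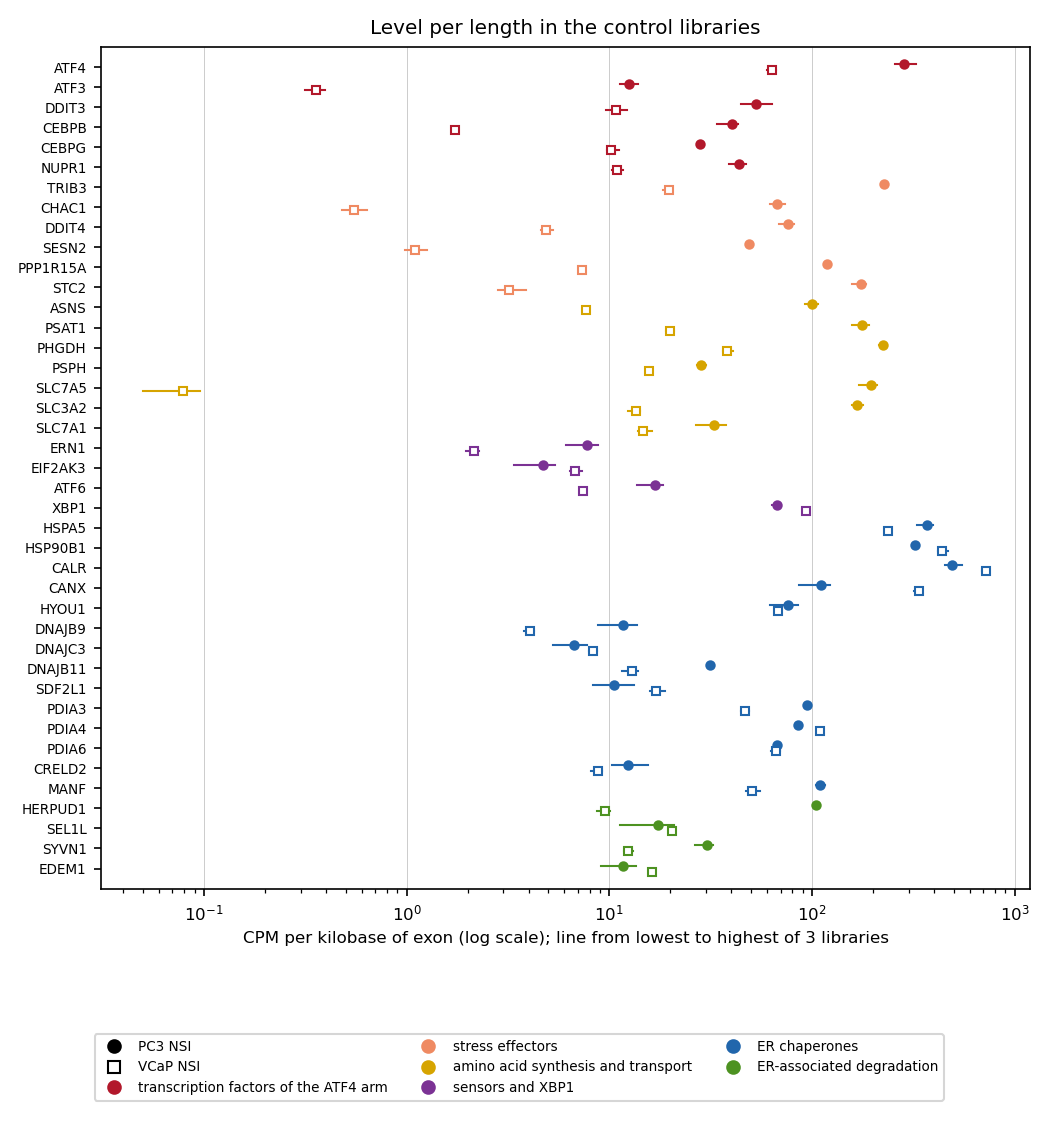
Level of the 41 genes in the NSI libraries, as CPM per kilobase of exon on a log axis, filled circles for PC3 and open squares for VCaP, with a line from the lowest to the highest of 3 libraries and colours for the roles. The ATF4 targets lie to the right in PC3, as with TRIB3 at 227 against 19.7, and the chaperones lie to either side.

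Other genes of the same pathways were read from lists beside the 41, with levels given as mean ± SD over 3 libraries. Of 20 cytosolic aminoacyl-tRNA synthetases, which charge tRNAs and of which many answer to ATF4, 1 rose and 10 fell in PC3, with a median of −0.26. The rise was WARS, which interferon is known to induce, from 541 ± 98.0 to 1148 ± 41.2 CPM, a log2 fold change of 1.08 (adjusted p 7.06e-04). The largest falls of the synthetases were those of RARS, for arginine, with a log2 fold change of −0.48 (adjusted p 0.00291), and FARSB, for phenylalanine, with −0.42 (adjusted p 0.00477). In VCaP 1 rose and 5 fell, with a median of −0.069. AARS, for alanine, rose there with a log2 fold change of 0.26 (adjusted p 0.0133), and QARS and VARS, for glutamine and valine, fell with −0.47 (adjusted p 2.28e-04) and −0.45 (adjusted p 8.63e-04). Of 24 other amino acid response genes 1 rose and 11 fell in PC3. With the replicate block 15 synthetases and 15 of these genes fell there, and under library size alone 2 synthetases (FARSB and RARS) and 8 of these genes did. The shares called were 55% of synthetases and 50% of the other list in PC3, against 27.7% of all genes (42.8% with the block and 27.1% under library size alone), and 30% and 83.3% in VCaP, against 45.8%. GDF15, a secreted stress hormone, went from 473 ± 39.9 to 211 ± 59.7 CPM, a log2 fold change of −1.17 (adjusted p 0.00261), and the glutamine transporter SLC1A5 from 371 ± 24.9 to 240.3 ± 11.6 CPM, a log2 fold change of −0.63 (adjusted p 0.00144). The rise was that of SESN3, a sestrin like SESN2, with a log2 fold change of 0.37 (adjusted p 0.0272). In VCaP 9 rose and 11 fell in that list, with a median of −0.14 against 0.38 for the 18 ATF4 targets above. JDP2, a bZIP repressor, went there from 2.62 ± 0.355 to 12.9 ± 0.330 CPM, a log2 fold change of 2.31 (adjusted p 6.69e-07). ALDH1L2, a mitochondrial folate enzyme, rose with a log2 fold change of 2.10 (adjusted p 3.02e-05). SLC1A5 went from 81.7 ± 5.08 to 21.0 ± 0.430 CPM, a log2 fold change of −1.96 (adjusted p 9.82e-08), and the lipoprotein receptor VLDLR fell with a log2 fold change of −1.66 (adjusted p 4.17e-06).

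The secretory lists showed few calls in PC3 without the replicate block. The shares called were 4.76% of translocation and glycosylation genes, 17.4% of folding and degradation genes and 8.33% of stress regulators, against 27.7% of all genes. In VCaP they were 52.4%, 69.6% and 75%, against 45.8%. Of 21 genes of ER translocation and glycosylation 0 rose and 1 fell in PC3, and in VCaP 7 rose and 4 fell. The PC3 fall was that of SSR2, of the translocon-associated complex, with a log2 fold change of −0.30 (adjusted p 0.0286). The signal peptidase subunit SPCS3 went from 51.8 ± 1.31 to 92.9 ± 8.70 CPM, a log2 fold change of 0.84 (adjusted p 2.00e-05) in VCaP. SEC61B, of the translocation channel, went from 24.8 ± 1.17 to 13.2 ± 0.444 CPM, a log2 fold change of −0.91 (adjusted p 6.95e-06) there. SEC63, a translocation factor, rose with a log2 fold change of 0.50 (adjusted p 0.0109), and SRPRA, of the signal recognition particle receptor, fell with −0.62 (adjusted p 5.67e-05). Of 23 matched genes of other ER folding and degradation 3 rose and 1 fell in PC3 and 7 rose and 9 fell in VCaP. In PC3 EDEM2 and OS9, both of glycoprotein degradation, rose with log2 fold changes of 0.33 (adjusted p 0.0285) and 0.32 (adjusted p 0.0254), and the isomerase TXNDC5 fell with −1.10 (adjusted p 3.57e-05). The isomerase P4HB went from 724 ± 22.8 to 408 ± 53.3 CPM, a log2 fold change of −0.83 (adjusted p 1.23e-04) in VCaP, beside the fall of PDIA4. The oxidase ERO1A went from 70.2 ± 2.91 to 124 ± 9.46 CPM, a log2 fold change of 0.82 (adjusted p 1.77e-05) in VCaP. FKBP2, a prolyl isomerase, rose there with a log2 fold change of 0.61 (adjusted p 2.87e-05), and PDIA5 fell with −0.90 (adjusted p 6.17e-05). Of 12 other ER stress regulators 0 rose and 1 fell in PC3 and 2 rose and 7 fell in VCaP. BBC3 (PUMA), a BH3-only death gene, fell in PC3 with a log2 fold change of −0.83 (adjusted p 0.0222) and rose in VCaP with 0.44 (adjusted p 0.0227). BHLHA15 (MIST1), a secretory cell factor, rose in VCaP with 1.59 (adjusted p 9.95e-04). CREB3L4, a membrane-bound factor cleaved like ATF6, went from 68.3 ± 5.61 to 21.1 ± 1.59 CPM, a log2 fold change of −1.69 (adjusted p 5.81e-07) in VCaP. MBTPS2, the site-2 protease that cleaves ATF6, went from 50.8 ± 1.41 to 25.4 ± 2.15 CPM, a log2 fold change of −0.999 (adjusted p 4.69e-06) there. By edgeR at an unadjusted p under 0.05, 0 translocation genes and 1 regulator rose in PC3, and by DESeq2 0 and 0. With the replicate block in PC3, 6 translocation genes fell, 5 folding and degradation genes rose and 3 fell, and 2 regulators rose and 5 fell, beside 42.8% of all genes called. Library size alone gave 0 falls of translocation genes in PC3, so the fall of SSR2 was lost, and 2 rises of regulators.

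Upstream of ATF4, 13 genes of eIF2 kinases and eIF2 control gave 2 rises and 3 falls in PC3, and 2 and 6 in VCaP. With the replicate block 2 rose and 7 fell in PC3, and under library size alone 2 rose and 0 fell, so the PC3 falls of EIF2A and EIF2S3 below depend on the scale. The shares called were 38.5% in PC3 and 61.5% in VCaP, against 27.7% and 45.8% of all genes. EIF2AK2 (PKR), the kinase that double-stranded RNA activates and an interferon-induced gene, rose in PC3 from 78.0 ± 20.0 to 325 ± 53.5 CPM, a log2 fold change of 2.06 (adjusted p 2.39e-04). In VCaP EIF2AK2 fell from 169 ± 3.96 to 102 ± 3.74 CPM, a log2 fold change of −0.73 (adjusted p 1.26e-05). EIF2AK4 (GCN2), the kinase that senses uncharged tRNA, rose in PC3 with a log2 fold change of 0.26 (adjusted p 0.0498), and EIF2A fell there with −0.29 (adjusted p 0.0211). EIF2S3, the gamma subunit of eIF2, fell in PC3 with −0.33 (adjusted p 0.0215) and in VCaP with −0.32 (adjusted p 0.00395). In VCaP EIF2B1 rose with 0.26 (adjusted p 0.00392) and PPP1R15B, the constitutive partner of PPP1R15A, with 0.18 (adjusted p 0.0270). Of these, EIF2AK2 rose in the line where ATF4 targets fell and fell in the line where most of them rose. Its part in the values of the ATF4 targets was not tested, and neither phosphorylation nor translation was measured.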

How the data were processed

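RNA libraries of 12 samples (2 lines, 2 siRNAs, 3 libraries each) were sequenced. The deposited values are estimated counts per gene, made by the authors with featureCounts (Subread 2.0.0) on the GENCODE v28lift37 basic annotation of GRCh37, per the file headers. Per the same headers, both ends of a pair had to map and a fragment with several places or genes was divided among them, so counts need not be whole. STAR 2.7.3a is named in the submitters' processing notes. Counts were rounded to whole numbers (ties upward), filtered with filterByExpr, scaled by TMM and tested with edgeR 4.0.16 (limma 3.58.1, R 4.3.3), each line on its own 6 libraries and the interaction on all 12, with Benjamini-Hochberg adjustment over all genes tested. DESeq2 1.42.0 and the other settings in the closing section were alternatives. The fits were tested on simulated counts with independent libraries and a common dispersion, in which only well-counted genes were changed. That test does not cover libraries that deviate together by replicate number, nor genes with few counts. The biological coefficient of variation came to 14.9% over the PC3 libraries and 9.89% over those of VCaP. Per the file headers, PC3 fragments were counted without regard to strand and VCaP fragments on the reverse strand. The replicate numbers come from the labels, which do not say what they share. Same-numbered PC3 libraries deviated together, with correlations of 0.411, 0.569 and 0.205, against means of −0.107, −0.403 and −0.0341 between other numbers. The block is therefore given beside PC3 results that it changes. No library was a copy of another. Members and lists were chosen with earlier results of these data known. Every member is given. Values in each library are given for ATF4, DDIT3, XBP1, HSPA5 and FOXA1, for up to 6 called members with the largest rise and fall in each line and up to 4 of each sign between lines, and some others were added after their values were seen. Of other pathway genes, up to 2 called changes per direction, line and list are named, and 2 symbols of those lists, SELENOS and UFD1, were not matched. Promoter sequences are RefSeq's on GRCh38.p14 and were read as letters only, with no coordinates carried over to GRCh37.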

Additional observations from a re-analysis of the deposited data

Results flagged for a closer look

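The effect of FOXA1 siRNA differed between PC3 and VCaP for 15 of the 41 genes by edgeR's interaction test, and each is given here as the VCaP minus PC3 difference in log2 fold change. Among the transcription factors the differences were 2.40 (adjusted p 2.44e-08) for NUPR1 and 0.86 (adjusted p 0.00214) for ATF3. The stress effectors gave 1.97 (adjusted p 1.54e-05) for DDIT4, 1.56 (adjusted p 4.29e-05) for CHAC1, 1.26 (adjusted p 4.98e-06) for SESN2 and 0.75 (adjusted p 2.31e-04) for TRIB3. Of the amino acid genes, SLC7A5 differed by 1.71 (adjusted p 2.84e-04), SLC3A2 by 0.99 (adjusted p 8.95e-05), ASNS by 0.80 (adjusted p 8.23e-05), PSPH by 0.59 (adjusted p 0.00164) and PHGDH by 0.44 (adjusted p 0.0115). The sensor ERN1 differed by 1.06 (adjusted p 3.71e-04), the cochaperone DNAJB9 by 1.47 (adjusted p 2.93e-05) and the degradation gene HERPUD1 by 0.43 (adjusted p 0.0128). PDIA4 was the member with a negative difference, −2.18 (adjusted p 1.76e-08). The call of HERPUD1 was lost without PC3 NSI replicate 1 or 3 or PC3 siFOXA1 replicate 3 (adjusted p 0.0563 to 0.0761) and that of PHGDH without PC3 NSI replicate 3 or PC3 siFOXA1 replicate 3 (adjusted p 0.0587 to 0.0640), and the other 13 held without any 1 library. Library size alone as the scale also ended the calls of PHGDH (adjusted p 0.0576) and HERPUD1 (adjusted p 0.0827). Kit, dose, medium and depth differ with the line and cannot be told apart from it here.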

How the results depend on the processing

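Library size alone as the scale left 7 called members in PC3, 5 falls of ATF4 targets, 2 called chaperones and 3 members with opposite calls in the lines, and PC3 medians of −0.24 for the targets and 0.16 for the chaperones, with MANF at 0.038 and SEL1L at 0.012 on the positive side (values for single genes are log2 fold changes). Upper-quartile factors gave a PC3 chaperone median of 0.13, MANF at 0.0081 in PC3, a VCaP target median of 0.43, and CALR at 0.025 and EDEM1 at 0.042 in VCaP. Without a filter on low counts 0 chaperones were called in PC3 by edgeR, with PDIA3 at adjusted p 0.0965, where DESeq2 called 1. With the replicate block the PC3 counts were 22 members, 16 falling targets and 3 chaperones, with 4 chaperones in the interaction and 11 opposite calls. Beside them, 42.8% of all genes were called in PC3 and 29% in the interaction. The 10 added PC3 calls stand beside their genes in the report, the block added 6 interaction calls (DDIT3, CEBPB, CEBPG, STC2, SDF2L1 and DNAJC3), and it changed no other member call. The PC3 chaperone median was 0.10 without mitochondrial and small RNA genes, 0.11 with all 12 libraries in 1 fit and 0.10 with ties in rounding taken to the even number, a choice made after seeing the data under which 9 members were called in PC3. EDEM1 in VCaP was at 0.0079 without those genes and at 0.021 in the joint fit, which also gave 4 called chaperones and CALR at 0.0023, and in which the VCaP calls of DDIT3, CEBPB, ATF6, HYOU1, DNAJC3, SDF2L1, CRELD2 and SEL1L were lost. Leaving out both PC3 libraries numbered 2, also chosen after seeing the data, gave 19 members, 2 chaperones, a chaperone median of 0.098, DNAJB9 at −0.043, 5 chaperones in the interaction and 10 opposite calls, with added PC3 calls of CEBPB, NUPR1, TRIB3, SLC7A1, XBP1, CALR and HERPUD1 (adjusted p 0.00215 to 0.0474). Calls over all genes rose as well, to 38.2% in PC3 and 27.5% in the interaction, from 27.7% and 22.1% in the main fits. Leaving out both VCaP libraries numbered 3, also chosen after seeing the data, gave VCaP medians of 0.44 for targets and 0.24 for chaperones, with STC2 at −0.019, HSP90B1 at 0.0066 and CALR at 0.071, and added VCaP calls of HSPA5, CANX, MANF and SYVN1 (adjusted p 0.00863 to 0.0454). There 44.5% of all genes were called in VCaP. With 1 library left out in turn the ranges were 4 to 10 for targets falling in PC3, 2 to 4 for chaperones in the interaction, 0 to 2 for chaperones called in PC3, 5 to 9 for chaperones called in VCaP, −0.36 to −0.26 for the PC3 target median, 0.046 to 0.14 for the PC3 chaperone median, 4 to 11 for members called in PC3 and 2 to 6 for opposite calls. Over all genes these runs called 14.7% to 27.9% in PC3, 37.2% to 42.2% in VCaP and 16.7% to 24.9% in the interaction. Uncalled genes that changed sign there in PC3 ranged as follows on the log2 scale, CANX −0.033 to 0.17, CRELD2 −0.074 to 0.32, DNAJB9 −0.044 to 0.21, DNAJC3 −0.053 to 0.22, EDEM1 −0.064 to 0.18, EIF2AK3 −0.24 to 0.036, HYOU1 −0.026 to 0.14, MANF −0.12 to 0.050, SDF2L1 −0.51 to 0.022 and SEL1L −0.27 to 0.090. Uncalled genes that changed sign there in VCaP ranged as follows on the log2 scale, CALR −0.078 to 0.053, DNAJB11 −0.0059 to 0.15, EDEM1 −0.051 to 0.015, HSP90B1 −0.14 to 0.019, STC2 −0.19 to 0.20 and SYVN1 −0.049 to 0.21. In those runs SYVN1 was called higher in VCaP without siFOXA1 replicate 3 (adjusted p 0.0220). The causes of these shifts were not tested. In VCaP the correlations of deviations between same-numbered libraries were 0.0925, 0.0364 and 0.350. Between libraries of other numbers they averaged −0.0207, 0.0015 and −0.212, so only number 3 stood clearly apart. The block gave 21 rises and 7 falls among the VCaP members, beside 50% of all genes called. Over all genes, calls fell from 27.7% to 14.7% in PC3 without siFOXA1 replicate 1 and to 16.2% without a filter, and from 45.8% in VCaP to 24.5% without a filter and 28% in the joint fit. VCaP counts of SLC7A5, ATF3 and CHAC1 were few, which limits the precision of their folds, and 3 libraries per group limit all of them.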
